A study of Homo sapiens with 4 samples.

Results

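hsa-miR-877-5p, hsa-miR-877-3p, hsa-miR-1226-3p and hsa-miR-484 (written without the species prefix from here on) are human miRNAs known to mature without Microprocessor, the nuclease complex that cuts most miRNA hairpins out of their primary transcripts. They were picked by name, and all 4 had a row among the 2366 human miRNA rows of the count tables. The cells were K562, an established human myeloid leukaemia line, made to express dCas9-KRAB, a repressor that a guide RNA brings to the gene to be silenced. In the ERH knockdown group, cells carrying 1 of 2 guide RNAs against ERH received doxycycline at 0.05 µg/ml, and in the control group the same polyclonal lines received none. Both were sampled on day 5, so each group held 2 small-RNA libraries, 1 per guide RNA. Controls carry dCas9-KRAB and the ERH guide RNAs too, and doxycycline differs between the groups along with ERH. ERH mRNA was not measured by this assay, so the depth of the knockdown is unknown here.

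In the usual route, the nuclease DROSHA with its partner DGCR8 releases the hairpin in the nucleus and DICER then cuts off the loop in the cytoplasm. ERH is a small protein that binds DGCR8 and is known for assisting the cleavage of poor hairpins that lie beside a good one. A mirtron is a short intron that folds into a hairpin: the spliceosome sets both of its ends, and after debranching it goes to DICER directly. miR-877 and miR-1226 are textbook mirtrons. miR-484 is known for a precursor with a 5′ cap, whose first end is set by the start of transcription. The comparison thus asks what happened after ERH knockdown to miRNAs that skip the step ERH is known to assist.

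The mature sequences below identify the 4 miRNAs; they come from RefSeq (GRCh38.p14), run 5′ to 3′, and have the seed (bases 2 to 8, which pair with target mRNAs) in capitals.
miR-877-5p: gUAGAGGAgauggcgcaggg
miR-877-3p: uCCUCUUCucccuccucccag
miR-1226-3p: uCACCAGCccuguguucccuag
miR-484: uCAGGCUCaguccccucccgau
The 4 seeds differ from each other, and no other row that matches a RefSeq mature miRNA shares any of them. Both miR-877 arms and miR-1226-3p show their origin in these letters: miR-877-5p opens with the GU of a splice donor, and miR-877-3p and miR-1226-3p end with the AG of a splice acceptor.

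The 2 mirtron hairpins fill their introns from end to end, as their full sequences show with the first 2 and last 2 bases in capitals.
miR-877 hairpin: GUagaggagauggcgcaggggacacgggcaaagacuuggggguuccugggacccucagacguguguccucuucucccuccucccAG
miR-1226 hairpin: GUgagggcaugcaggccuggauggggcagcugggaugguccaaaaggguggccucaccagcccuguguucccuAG
The miR-877 hairpin (chr6:30584332-30584417, plus strand) coincides base for base with an intron in 3 of 7 ABCF1 transcripts annotated in GENCODE 29 (GRCh38). The miR-1226 hairpin (chr3:47849555-47849629, plus strand) coincides with an intron in 6 of 15 DHX30 transcripts. The miR-484 hairpin (chr16:15643294-15643372, plus strand) lies in an exon of 1 of 12 NDE1 transcripts, and the nearest annotated NDE1 start lies 27 bases upstream of the hairpin. Among 1562 RefSeq hairpins, 23 fill an annotated intron exactly. Each of these 23 opens with GU and closes with AG, which follows from their match to an intron and is no separate finding. Of the other 1539 hairpins, 13 (0.845%) have both of these ends.

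The 3 hairpins were rich in G and C. Of 251 RefSeq hairpins that gave a tested miRNA from a single locus, the median GC content was 51.1%, while the miR-877 hairpin had 62.8%, the miR-1226 hairpin 64.0% and the miR-484 hairpin 59.5%. By predicted folding energy, the miR-877 hairpin lay near the median, and the miR-1226 and miR-484 hairpins were less stable than most. RNAfold gave -39.8 kcal/mol for the miR-877 hairpin, -35.4 for the miR-1226 hairpin and -32.5 for the miR-484 hairpin, against a median of -40.3 kcal/mol over the 251. The miR-1226 hairpin was thus predicted to be less stable than 174 of them and the miR-484 hairpin less stable than 203. By energy per base, these counts were 134 and 192.

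Over the human miRNA rows, the libraries held 2227374 and 2393565 reads in ERH knockdown and 1430434 and 2476700 in control. The 4 miRNAs took 0.258% and 0.237% of these reads in knockdown, against 0.191% and 0.193% in control. Most of these were reads of miR-484. Such shares are unscaled, and with library size alone the median log2 fold change over all tested miRNAs was 0.50. Erythroid and myeloid marker miRNAs of the K562 lineage were abundant, and most differed between the groups. In CPM of the unscaled totals, the 4 erythroid markers summed to 52714 and 50883 in knockdown and 39849 and 39088 in control. The 2 myeloid markers summed to 84590 and 84708 in knockdown and 90005 and 91939 in control. Like the shares above, these sums are unscaled, and scaled sums are not given. The higher erythroid sum is thus no sign of a gain relative to the bulk of miRNAs. In the fit described below, both arms of miR-144 were called higher (log2 fold change 0.74 for 3p and 0.88 for 5p). Of the other erythroid markers, miR-451a was called lower (-0.48) and miR-486-5p was not called (-0.05). The erythroid markers thus moved in different directions and give no single reading of the lineage. Both myeloid markers were called lower (median log2 fold change -0.54). Of 6 markers of other lineages with a row, 4 had at most 8 reads in any library. The liver marker miR-122-5p had 5 and 2 reads in knockdown and 1 and 4 in control, and the muscle marker miR-1-3p had 8 and 6 in knockdown and 1 and 1 in control. The neural marker miR-9-5p was well above that, with 826 and 884 reads in knockdown and 419 and 812 in control, and was not called (log2 fold change -0.20). The epithelial marker miR-200c-3p had 194 and 186 reads in knockdown and 69 and 116 in control, and was called higher (log2 fold change 0.35, edgeR adjusted p = 0.044). The part of these marker differences in the results below was not tested.

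After ERH knockdown, both arms of miR-877 rose relative to the bulk of miRNAs, whereas miR-1226-3p and miR-484 did not pass the test. All 4 passed the filter on low counts and entered one fit of 464 miRNAs (edgeR's quasi-likelihood test, Benjamini-Hochberg adjusted p under 0.05). In that fit, 2 of the 4 were called, both higher in knockdown, against 50.9% of all tested miRNAs called and 25.6% called higher. Another 25.2% of all tested miRNAs were called lower, and 0 of the 4 were. A count of 2 in 4 is at the background share of calls. Levels below are CPM, read counts scaled to one common library total after TMM (a factor per library that centres the bulk of miRNAs).

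miR-877-5p, the more abundant arm of the ABCF1 mirtron, had 192 and 189 reads in the knockdown libraries, against 56 and 111 reads in the control libraries. Scaled, that was 72.9 and 69.0 CPM in knockdown and 44.4 and 53.6 CPM in control, or 71.0 ± 2.8 and 49.0 ± 6.5 CPM (mean ± SD, n = 2 each). Both knockdown libraries lay above both control libraries. How many of all tested miRNAs separated in this way was not counted, here and for the miRNAs below. Separation also occurred in uncalled miRNAs, such as let-7e-5p (edgeR adjusted p = 0.28), so it is no support by itself. The log2 fold change was 0.51 ± 0.15 (SE), a 1.42-fold rise with an edgeR adjusted p of 0.0092. Within the lines, the log2 difference was 0.70 with guide RNA 1 and 0.36 with guide RNA 2.

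miR-877-3p, the other arm, had 114 and 92 reads in knockdown, against 31 and 41 reads in control. Its levels were 43.3 and 33.6 CPM in knockdown and 24.6 and 19.8 CPM in control, again without overlap. The log2 fold change was 0.82 ± 0.21 (SE), a 1.77-fold rise with an edgeR adjusted p of 0.0049. The log2 differences within guide RNA 1 (0.79) and guide RNA 2 (0.74) were close to each other. Both miR-877 calls are fragile: without the knockdown library of guide RNA 1 the edgeR adjusted p was 0.099 for the 5p arm and 0.093 for the 3p arm, and with DESeq2 it was 0.101 and 0.058. The 5p arm also lost its call without the control library of guide RNA 1 (edgeR adjusted p = 0.0502), and the 3p arm without that of guide RNA 2 (edgeR adjusted p = 0.141).

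miR-1226-3p, from the DHX30 mirtron, had 118 and 138 reads in knockdown and 54 and 83 reads in control. That came to 44.8 and 50.4 CPM in knockdown, against 42.8 and 40.05 CPM in control. The groups did not overlap, yet the lowest knockdown library and the highest control library, both of guide RNA 1, were close. The log2 fold change was 0.21 ± 0.16 (SE), which did not pass (edgeR adjusted p = 0.29). The log2 difference was 0.06 with guide RNA 1 and 0.32 with guide RNA 2.

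miR-484 was far more abundant than the mirtrons, 49th of the 464 tested miRNAs by level in control. It had 5333 and 5243 reads in knockdown and 2585 and 4544 reads in control, or 2026 and 1914 CPM in knockdown against 2050 and 2192 CPM in control. The means were 1970 ± 79 CPM in knockdown and 2121 ± 101 CPM in control (SD, n = 2 each). Knockdown libraries lay slightly below control libraries, with a log2 fold change of -0.11 ± 0.06 (SE) that was not called (edgeR adjusted p = 0.14). Its SE was the smallest of the 4, and the other 3 miRNAs had 31 to 192 reads a library.

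**Figure D1:**
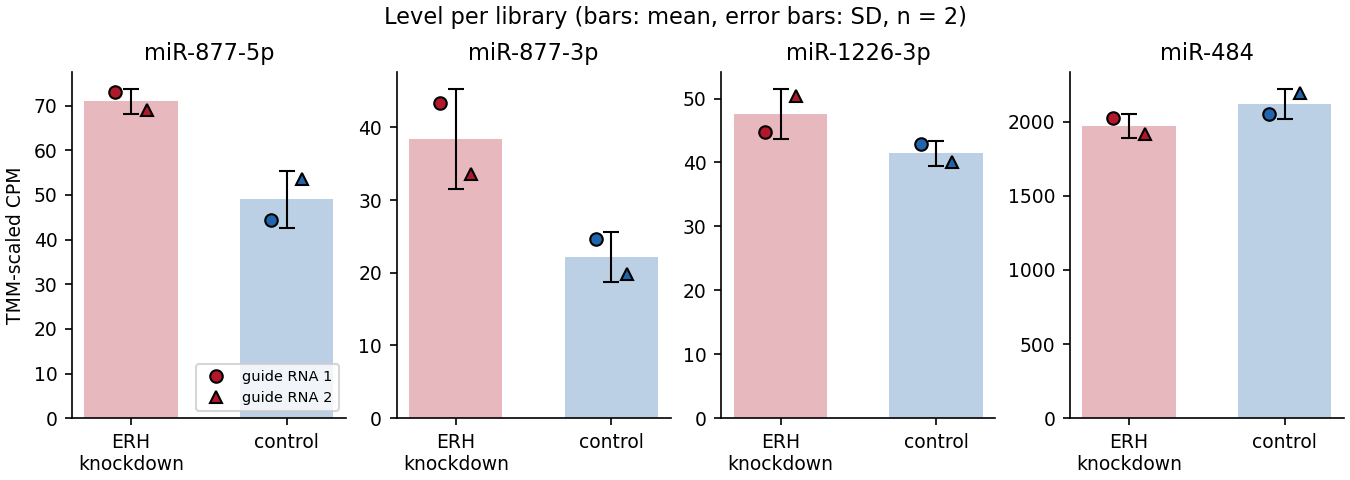
TMM-scaled CPM of the 4 miRNAs in each library, ERH knockdown left of control; bars are means, error bars are SD (n = 2), and the symbol gives the guide RNA. The miR-877 arms are separated between groups, while miR-1226-3p and miR-484 differ by little.

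Scaling decides the direction for miR-484. Its log2 fold change was 0.33 with library size alone, where it was called (edgeR adjusted p = 8.5e-05), and 0.57 with the added spike-in RNAs, where it was not (edgeR adjusted p = 0.22). With RLE size factors it was -0.16 and just called (edgeR adjusted p = 0.046). miR-1226-3p was called higher with library size (0.65) and with spike-ins (0.90). Both miR-877 arms were called higher under each of the 4 scalings, the 5p arm at 0.46 to 1.19 and the 3p arm at 0.77 to 1.48. Of all 464 tested miRNAs, edgeR called 119 higher with TMM, 108 with RLE, 273 with library size and 186 with spike-ins. A call in that direction was thus common with library size and with spike-ins.

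These shifts were shared by the bulk of miRNAs. The median log2 fold change over all 464 was 0.06 with TMM, 0.50 with library size and 0.75 with spike-ins. Relative to that median, miR-484 stood at -0.17 with each of these 3 scalings. By the same measure miR-877-5p stood at 0.44, 0.45 and 0.44, and miR-1226-3p at 0.15, 0.15 and 0.15, with TMM, library size and spike-ins in that order. For miR-877-3p the values were 0.76, 0.76 and 0.73. A scaling multiplies all miRNAs of a library by the same factor, so a near-constant distance from the median follows from its construction and is no separate finding.

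**Figure D2:**
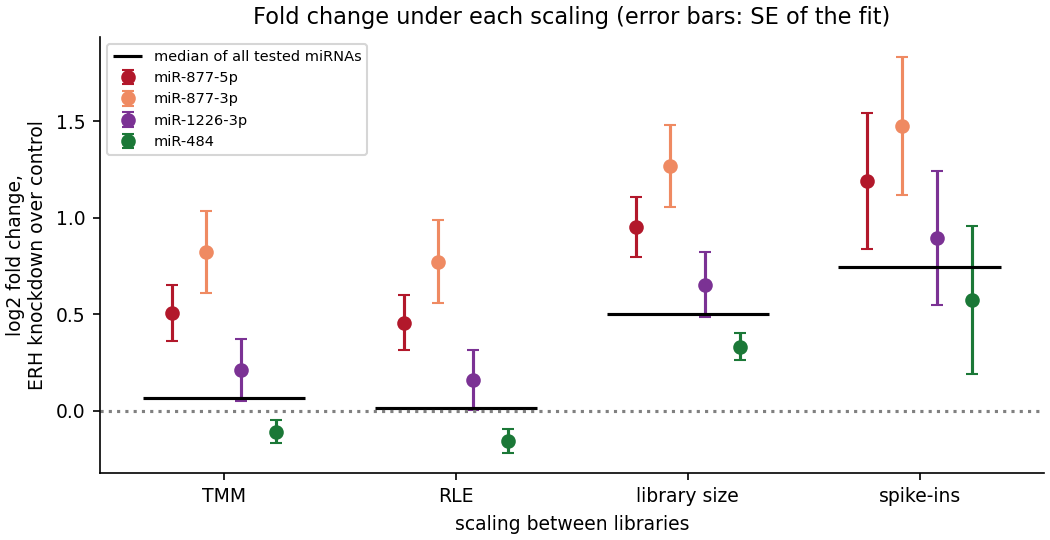
Log2 fold change of the 4 miRNAs, ERH knockdown over control, under 4 scalings of the libraries; error bars are the SE of the fit and black lines mark the median of all tested miRNAs. Since a scaling moves all miRNAs of a library together, what changes between panels is their place relative to 0: miR-484 lies at -0.11 with TMM and 0.57 with spike-ins.

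Counted against the spike-ins, each of the 4 was higher in both knockdown libraries than in both control libraries. The bulk of miRNAs rose on this scale too. With spike-in scaling the median log2 fold change over all 464 was 0.75, with 186 called higher and 8 lower by edgeR. How many of all tested miRNAs were without overlap on this scale was not counted. Per 1000 spike-in reads, miR-484 had 90.1 and 109 reads in knockdown and 56.0 and 78.2 in control. miR-877-5p had 3.24 and 3.95 in knockdown and 1.21 and 1.91 in control, and miR-877-3p 1.93 and 1.92 in knockdown and 0.67 and 0.71 in control. miR-1226-3p had 1.99 and 2.88 in knockdown and 1.17 and 1.43 in control. The groups also did not overlap when either spike-in was used alone. The spike-ins themselves were not steady, since the fly miR-14 spike had 129 and 102 reads per 1000 of the frog miR-427 spike in knockdown and 140 and 139 in control. When they were added, and in what amount, is not given in the sources used here, and their part in these differences was not tested.

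Ratios between miRNAs of 1 library need no scaling, and by them both arms of the ABCF1 mirtron gained on miR-484 with each guide RNA. Per 1000 reads of miR-484 there were 36.0 and 36.0 reads of miR-877-5p in knockdown, against 21.7 and 24.4 in control, a 1.57-fold higher ratio. For miR-877-3p the ratio was 21.4 and 17.5 in knockdown and 12.0 and 9.02 in control, 1.86-fold higher. Both differences were larger than the spread between libraries of 1 group, and both guide RNAs showed them (1.66-fold and 1.48-fold for the 5p arm, 1.78-fold and 1.94-fold for the 3p arm, guide RNA 1 before 2). With 2 libraries against 2, an exact two-sided permutation test cannot go below p = 0.333, the value found for both.

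The DHX30 mirtron was less clear on this scale. miR-1226-3p had 22.1 and 26.3 reads per 1000 of miR-484 in knockdown, against 20.9 and 18.3 in control, a 1.24-fold higher ratio. The change was 1.06-fold with guide RNA 1 and 1.44-fold with guide RNA 2, a gap wider than that of either miR-877 arm. Set against each other, the mirtrons gave 1.63 and 1.37 reads of miR-877-5p per read of miR-1226-3p in knockdown and 1.04 and 1.34 in control. The groups nearly touched, and the ratio was 1.57-fold higher with guide RNA 1 and 1.02-fold higher with guide RNA 2. For miR-877-3p there were 0.966 and 0.667 reads per read of miR-1226-3p in knockdown and 0.574 and 0.494 in control, again without overlap. That ratio was 1.51-fold higher in knockdown, by 1.68-fold with guide RNA 1 and 1.35-fold with guide RNA 2. Both comparisons gave the smallest p that the exact permutation test allows here (0.333).

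**Figure D3:**
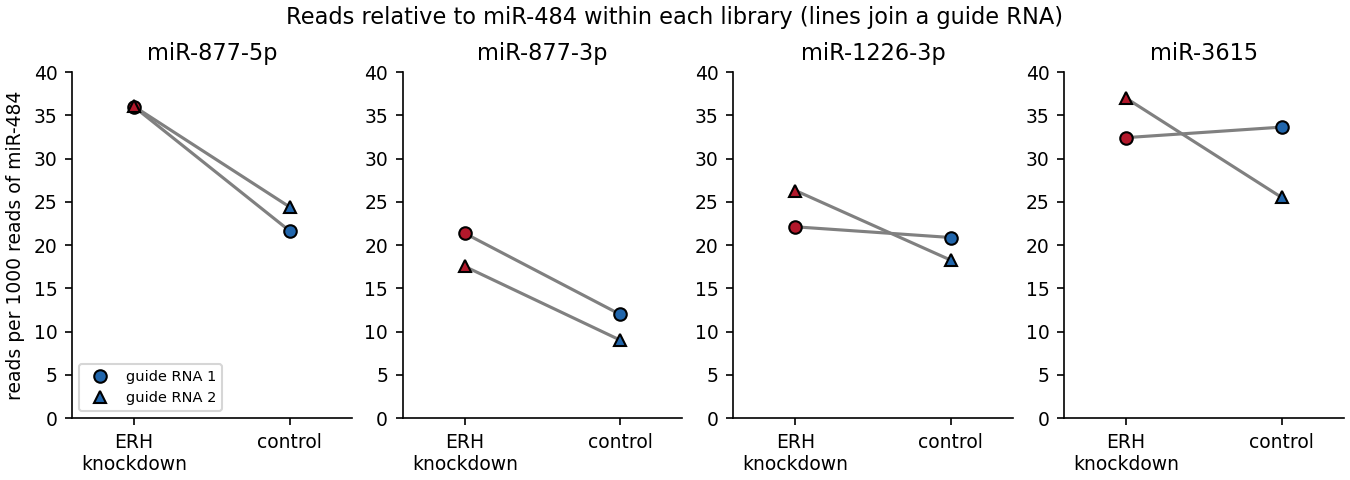
Reads of each miRNA per 1000 reads of miR-484 in the same library, ERH knockdown left of control, with a line joining the libraries of each guide RNA. Both miR-877 arms are higher in knockdown with each guide RNA, miR-1226-3p mainly with guide RNA 2, and miR-3615, another capped hairpin, goes opposite ways.

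The arms of miR-877 come from 1 hairpin, so their ratio needs no scaling either. The 5p arm made up 62.7% of miR-877 reads (exact 95% confidence interval 57.1% to 68.2%, of 306 reads) and 67.3% (61.4% to 72.7%, of 281) in knockdown. In control it made up 64.4% (53.4% to 74.4%, of 87 reads) and 73.0% (65.2% to 79.9%, of 152). The groups overlapped (exact permutation p = 0.667 for the ratio of the arms, two-sided, 2 libraries against 2, unpaired). Within each line the log2 ratio of the 5p to the 3p arm was lower in knockdown, with a difference of -0.10 for guide RNA 1 and -0.40 for guide RNA 2. These intervals cover counting error only. miR-1226 gave nearly all of its reads from the 3p arm, 98.3% and 98.6% in knockdown against 100% (54 of 54 reads) and 92.2% in control. Its 5p arm, which would carry the splice donor end, had 2 and 2 reads in knockdown and 0 and 7 in control.

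Each of the 4 was set beside the 20 tested miRNAs nearest to it in control level, which describes what miRNAs of like level did and is no test. For miR-877-5p, 5 of its 20 neighbours were called higher and 9 lower, with a median log2 fold change of -0.15. Its own 0.51 was exceeded by 3 of them, miR-548o-3p (1.07), miR-576-3p (0.69) and miR-330-3p (0.52), named here after their values were seen. For miR-877-3p, 3 neighbours were called higher and 3 lower, with a median of 0.02, and miR-3187-3p (1.90) alone lay above its 0.82.

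For miR-1226-3p, 2 of 20 neighbours were called higher and 9 lower (median -0.19), and 5 lay above its 0.21; it shared 7 of these neighbours with miR-877-5p. For miR-484, 2 of 20 were called higher and 9 lower, with a median of -0.14, close to its own -0.11. In that range of 1572 to 2917 CPM in control, 9 of 20 neighbours lay above miR-484. When neighbours were picked by the mean of all 4 libraries instead, a choice made after the data were seen, the counts changed. Those of miR-877-5p were then 7 called higher and 6 lower, with a median of 0.14 and 4 above it. Those of miR-1226-3p were 7 higher and 5 lower, with a median of 0.18 and 10 above it. For miR-877-3p, 3 were higher and 7 lower (median -0.15, 0 above it), and for miR-484, 3 were higher and 8 lower (median -0.11, 10 above it).

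**Figure D4:**
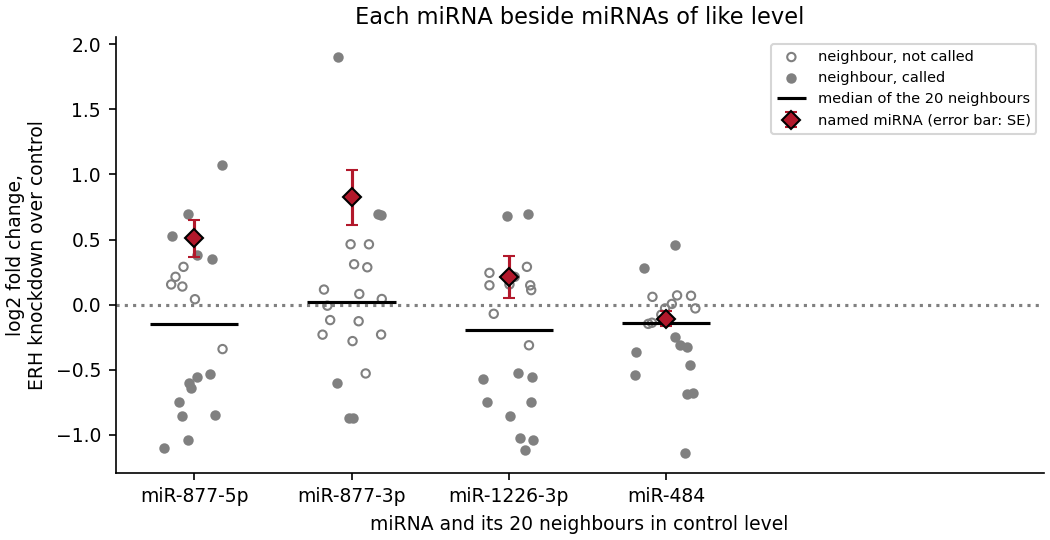
Log2 fold change, ERH knockdown over control, of each of the 4 miRNAs (diamond, error bar SE) and of the 20 tested miRNAs nearest in control level (circles, filled where called; the line is their median). miR-877-5p and miR-877-3p lie above the bulk of their neighbours, with 3 and 1 higher, and miR-484 lies close to the median of its own.

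As reads per 1000 reads of the summed neighbours, miR-877-5p had 77.1 and 70.8 in knockdown and 44.3 and 55.8 in control. miR-877-3p had 85.2 and 65.9 in knockdown and 56.7 and 44.7 in control, and miR-1226-3p 61.5 and 67.8 in knockdown and 50.4 and 50.5 in control. In these 3 the groups did not overlap, at the smallest p that the exact permutation test allows (0.333). How many of all tested miRNAs would separate from their own neighbours in this way was not counted. miR-484 had 56.6 and 52.2 in knockdown and 49.4 and 53.1 in control, which overlapped (exact permutation p = 0.667, two-sided). The control means near 50 follow from the choice of 20 neighbours at the same level. For miR-1226-3p the ratio, 0.36 on the log2 scale, was 0.15 with 40 neighbours and 0.04 with neighbours picked over all 4 libraries, so it hangs on that choice.

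The other mirtrons on the list, which does not cover all known mirtrons, were scarcely detected in K562. Of 18 further mirtron arms with a row, from miR-1224 to miR-1238, 2 passed the filter and 0 were called (edgeR). Over all 464 tested miRNAs, 236 were called. Of the 2 arms, 1 had an unadjusted edgeR p under 0.05, as did 268 of all 464. With DESeq2, miR-1227-3p was not called and miR-1229-3p was given no adjusted p. miR-1227-3p, from an intron of PLEKHJ1, had 27 and 21 reads in knockdown and 6 and 14 reads in control, a log2 fold change of 0.57 ± 0.37 (SE; edgeR adjusted p = 0.21). miR-1229-3p, from an intron of MGAT4B, had 11 and 11 reads in knockdown and 3 and 2 in control, a log2 fold change of 1.41 ± 0.58 (SE; edgeR adjusted p = 0.052). With library size and with spike-ins both were called higher by edgeR, miR-1227-3p at 1.02 and 1.23 and miR-1229-3p at 1.85 and 2.05. Under these 2 scalings, 273 and 186 of all 464 tested miRNAs were called higher. Without the control library of guide RNA 2 the value of miR-1229-3p was 0.75, and without that of guide RNA 1 it was 2.02. For miR-1227-3p it was 0.34 without the knockdown library of guide RNA 1 and 0.88 without the control library of guide RNA 2, and neither miRNA was called in these 4 fits (edgeR). At the control level of miR-1229-3p, the filter on low counts keeps mainly miRNAs that are high in knockdown, so neighbours in control level are not given for it.

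The remaining 16 arms had at most 9 reads in any library, and 8 had 0 in all libraries. Together these 16 gave 18 and 19 reads in knockdown and 5 and 18 in control. The limit that 0 reads sets is 3 reads, which is 1.35 and 1.25 CPM of the unscaled totals in the knockdown libraries and 2.10 and 1.21 in the control libraries. Over all 40 arms of hairpins that fill an intron exactly, 5 were tested: both miR-877 arms, miR-1226-3p, miR-1227-3p and miR-1229-3p. The calls were those of the 2 miR-877 arms described above. Passing the filter favours a miRNA that is high in at least 1 group, so these 5 do not stand for all 40.

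miR-3615 was the other capped hairpin on the list that could be analysed; miR-320a, the best known one, was not analysed here. Its hairpin (chr17:74748613-74748699, plus strand) has an annotated start of SLC9A3R1 39 bases inside it. miR-3615 had 173 and 194 reads in knockdown and 87 and 116 in control, or 65.7 and 70.8 CPM in knockdown and 69.0 and 56.0 CPM in control. The groups overlapped, and its log2 fold change of 0.16 ± 0.14 (SE) was not called (edgeR adjusted p = 0.39). With library size (0.60) and spike-ins (0.84) it was called higher, as were 273 and 186 of all 464 tested miRNAs.

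**Figure D5:**
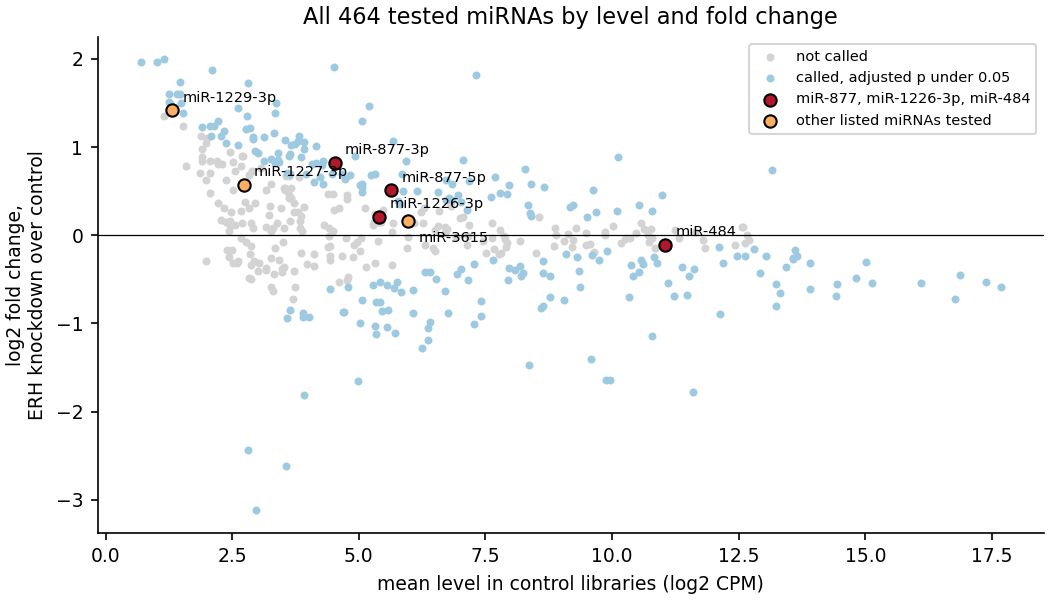
Log2 fold change, ERH knockdown over control, of all 464 tested miRNAs (y axis) by mean log2 CPM in the control libraries (x axis); blue points were called. The miR-877 arms lie at 0.51 and 0.82, miR-1226-3p at 0.21 and miR-3615 at 0.16, and miR-1229-3p lies at the left, where the filter on low counts keeps mainly miRNAs high in knockdown.

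By their values over the 4 libraries, some other miRNAs ran close to these. The likeness was the distance between log2 CPM values, each miRNA centred on its own mean, and the 2 nearest of 460 other tested miRNAs were taken for each. miR-330-3p (distance 0.04) and miR-328-3p (0.07) ran nearest to miR-877-5p, against a median distance of 0.69. miR-1303 (0.08) and miR-4766-3p (0.16) ran nearest to miR-877-3p, with a median of 0.90. miR-629-5p (0.04) and miR-616-5p (0.08) were nearest to miR-1226-3p, and miR-339-5p (0.05) and miR-423-3p (0.06) to miR-484. With only 4 libraries, many miRNAs share any such profile.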

How the data were processed

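The deposited values are raw read counts per mature miRNA (whole numbers, 1 table without a header per library); the authors sequenced gel-purified small RNA, per the labels. No label or header names the read trimming, aligner, annotation release or genome build. The 2 spike-in rows were left out of totals and tests. Counts were filtered with filterByExpr (minimum count 10, minimum total 15), scaled with TMM and fitted with edgeR 4.0.16 in R 4.3.3, knockdown against control, all 4 libraries, no block. SE is the log2 fold change over the root of the F statistic. Replicate numbers are guide RNAs, and thus separate lines, which pairs the libraries; deviations from the group means were uncorrelated or slightly opposed within a pair (correlation -0.11). Each line gave 1 culture per condition, so the p-values reflect variation among the 4 libraries alone. The 2 libraries of each group differed by more than counting error (chi-square over degrees of freedom 3.93 in knockdown, 10.1 in control) and count separately. Alternatives were a block, DESeq2 1.42.0, RLE, library size, spike-ins, other filters and leaving out each library. The test was checked on simulated counts of these 464 miRNAs. The named miRNAs are the 4 members, listed mirtrons and capped hairpins that passed the filter, and the 2 nearest in profile to each; members and lists were chosen with earlier results of these data known. Ratios, neighbours and sequences were computed in Python 3.11.15 (SciPy 1.17.1), with GENCODE 29 introns and RNAfold 2.7.2; 368 of 464 tested miRNAs matched a RefSeq hairpin sequence. Ratios between the miRNAs, the count of intron-filling hairpins and neighbours picked over all 4 libraries were added after the data were seen.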

Additional observations from a re-analysis of the deposited data

Results flagged for a closer look

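In 3 results the libraries of guide RNA 1 and guide RNA 2 moved opposite ways; with 1 library per condition and line, that difference was not tested. The log2 difference of miR-3615, knockdown minus control, was -0.069 with guide RNA 1 and 0.33 with guide RNA 2. Its log2 ratio to miR-484 changed by -0.053 and 0.54 with guide RNA 1 and 2. The log2 ratio of miR-484 to its neighbours changed by 0.20 and -0.025 with guide RNA 1 and 2.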

How the results depend on the processing

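The count of called miRNAs, 236 of 464, was 150 with DESeq2 and ran from 117 (without knockdown replicate 1) to 195 when 1 library was left out; without control replicate 2 it was 140. miR-877-5p and miR-877-3p lost their calls with DESeq2 (0.47 and 0.76). Leaving out 1 library gave 0.40 to 0.65 for miR-877-5p and 0.62 to 0.99 for miR-877-3p, and 0.12 to 0.28 for miR-1226-3p and -0.16 to -0.07 for miR-484. miR-1226-3p became called with library size (0.65) and spike-ins (0.90), as miR-484 did with RLE (-0.16). miR-484 turned to 0.33 with library size and 0.57 with spike-ins; the median of all miRNAs moves by 0.44 and 0.68 under these scalings. With guide RNA as a replicate block, the 4 values were 0.51, 0.79, 0.22 and -0.11, 230 miRNAs were called, and no call among the 4 changed. The log2 ratio of miR-1226-3p to its neighbours moved to 0.52 with 10, to 0.15 with 40 and to 0.038 with neighbours picked over all 4 libraries, and that of miR-877-3p to 0.998 with the last; the cause was not tested. Without 1 library these ratios ran from 0.40 to 0.74 for miR-877-5p, 0.39 to 0.76 for miR-877-3p, 0.28 to 0.43 for miR-1226-3p and 0.03 to 0.14 for miR-484. The log2 arm ratio of miR-877, -0.25, ran from -0.54 to 0.042, turning positive without control replicate 2. Without control replicate 2, miR-3615 turned to -0.038. The 31 to 192 reads a library behind the miR-877 arms and miR-1226-3p limit what can be seen. The other listed mirtron arms had fewer.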
